A study of Homo sapiens with 12 samples.

Results

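Eliglustat, an inhibitor of glucosylceramide synthase, was compared with its vehicle in MV-4-11 cells by RNA sequencing. The comparison used the 3 libraries labelled ELI (eliglustat alone) and the 3 labelled DMSO (vehicle), 6 of the 12 libraries of the series, chosen by their labels and not by any measured value. The other 6 libraries came from cells given both drugs (Comb) and from cells given venetoclax, also known as ABT-199, alone (ABT), 3 each. Treatment lasted 48 h. The sources used here give no doses. MV-4-11 is an established line of acute myeloid leukemia with monocytic features, grown in serum-containing medium and labelled WT in genotype in all 4 groups. The line carries a KMT2A-AFF1 fusion and a tandem duplication within FLT3, a receptor kinase, so every group shares both lesions. A single cultured line holds none of the stromal or immune cells of the marrow it came from. The series title names UGCG, the response to venetoclax, and RAB32, a small GTPase that acts where mitochondria touch the endoplasmic reticulum.

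Glycosphingolipids are membrane lipids built on ceramide. Ceramide is made in the endoplasmic reticulum and reaches the Golgi, where glucosylceramide synthase, encoded by UGCG, adds the first sugar. Further sugars give lactosylceramide and gangliosides, and lysosomal enzymes take these lipids apart again to ceramide, sphingosine and fatty acid. Eliglustat blocks the first sugar-adding step and is used in Gaucher disease.

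Of the 20036 genes in the deposited table, 9959 reached 1 FPKM in at least 3 of the 12 libraries and were tested. FPKM is the number of reads per kilobase of gene model, scaled to the reads of the library. A further 136 genes fell just short, with a third-highest value of 0.9 to 1 FPKM, and 104 passed with one of 1 to 1.1 FPKM. Of the tested genes, 62 had all ELI libraries at 1 FPKM or more and all DMSO libraries under 1. The reverse held for 62. Differences are ELI minus DMSO on the log2(FPKM + 1) scale, where 1 unit is a factor of 2 for well expressed genes and less than the true change for low ones, and each is given with its standard error (SE). A gene was called higher or lower where its limma p-value, adjusted over all 9959 genes, was under 0.05. By this rule 3600 genes (36.1%) changed, 1629 (16.4%) higher and 1971 (19.8%) lower in ELI than in DMSO. These shares are the background for every list count that follows, and some lists held a smaller share of calls than all tested genes. Most changes were small. The quartiles of all differences were -0.19 and 0.22 around a median of 0.01, and 78 genes rose and 19 fell by 1 or more. Libraries of the 2 groups did not overlap in 4030 genes (40.5%). Since no label states that the libraries of a group were separate cultures, the p-values reflect the spread of these libraries alone, and that spread may be technical.

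The 6 libraries held 17259898 to 21082302 reads assigned to genes, as read back from the FPKM values. The distance of single libraries from their group mean ran with gene GC content, with a negative Spearman's rho over 9947 genes in replicate 1 (-0.70 in ELI and -0.79 in DMSO) and a positive one in replicate 2 (0.69 in ELI and 0.81 in DMSO). The difference of ELI and DMSO ran with GC content too (rho -0.48). Genes called higher had a median GC content of 44.5%, those called lower 55.4% and all tested genes 48.7%. After each library was corrected for a GC and length trend, 3189 of the 3600 called genes passed again in the same direction and 0 in the opposite one. Across the 3 pairs of same-numbered libraries, 3592 of the 3600 called genes (99.8%) moved the same way in every pair, against 7016 of all 9959 (70.4%). The calls were made on these same libraries, so the selection largely sets this agreement and it is no independent check. Leaving out each of the 6 libraries in turn kept 2057 of the 3600 calls throughout, with 5871 genes called when DMSO replicate 1 was left out and 2291 when ELI replicate 1 was. Mitochondrially encoded genes took 5.02 to 5.79% of the reads in ELI and 5.65 to 6.96% in DMSO. Defining genes of the myeloid line, from the progenitor kinase FLT3 to the surface proteins CD33 and CD4, all exceeded 1 FPKM in at least 1 of the 6 libraries (10 of 10), with summed levels of 683 to 700.1 FPKM in ELI and 649 to 686 FPKM in DMSO. The listed erythroid and stromal genes and the 4 T cell genes analysed here stayed under 1 FPKM in these 6 libraries, with CD2, CD3G, CD3D, HBA1, HBB and COL1A2 at 0. Of the B cell genes CD79A was among those above 1 FPKM and the list summed to 2.22 to 3.27 FPKM in ELI and 5.11 to 6.62 FPKM in DMSO, and of the epithelial genes KRT8 and KRT18 exceeded 1 FPKM, with sums of 2.56 to 3.31 FPKM in ELI and 5.48 to 7.01 FPKM in DMSO and KRT19 at 0. The part of these low levels in any result was not tested. In bulk RNA, fewer cells of a kind and less RNA per cell cannot be told apart, and this holds for every result that follows.

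Among genes that averaged 5 FPKM or more over the 12 libraries and did not overlap between ELI and DMSO, the largest rise belonged to BHLHE40, a basic helix-loop-helix repressor that binds E-boxes and takes part in the circadian clock and in immune cell differentiation. BHLHE40 (ENSG00000134107) stood at 27.0, 27.3 and 26.5 FPKM in ELI replicates 1 to 3 and at 2.65, 3.20 and 3.72 FPKM in DMSO. That its groups did not overlap is part of how it was chosen. The difference was 2.74 (SE 0.08, limma adjusted p = 3.7e-09). IL4I1, a secreted amino acid oxidase of macrophages and dendritic cells, came next with 29.5, 37.5 and 33.2 FPKM in ELI against 3.67, 4.21 and 5.38 FPKM in DMSO, a difference of 2.67 (SE 0.11, limma adjusted p = 2.9e-08). Further down the order, COL6A1, a chain of collagen VI, averaged 11.0 ± 1.04 FPKM in ELI and 1.83 ± 0.273 FPKM in DMSO (SD, n = 3 each). SIGLEC6, a sialic acid receptor, averaged 21.9 ± 1.31 FPKM in ELI and 4.74 ± 1.29 FPKM in DMSO. LGALS2, a galectin, was at 12.8 ± 1.07 FPKM in ELI and 2.60 ± 0.371 FPKM in DMSO. The other genes among the 15 largest rises were CD36, IL7R, KLF6, INSIG1, CXCL8 and PIM1, described with their groups, the opsin OPN3, the small GTPase RHOB, the GTPase GIMAP8 and the claudin-domain protein CLDND1, with differences from 1.5 (CLDND1) to 1.70 (OPN3) among these last 4. The calls of the 4 largest rises held when any of the 6 libraries was left out.

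By the same measure the largest fall was that of S100A8, which pairs with S100A9 to form calprotectin, a calcium-binding alarmin of neutrophils and monocytes. S100A8 (ENSG00000143546) read 17.1, 14.9 and 16.9 FPKM in ELI and 84.5, 79.0 and 83.4 FPKM in DMSO, a difference of -2.27 (SE 0.13, limma adjusted p = 3.5e-07). S100A9 followed with 33.5, 28.0 and 36.3 FPKM in ELI and 122, 133 and 126 FPKM in DMSO, a difference of -1.94 (SE 0.11, limma adjusted p = 3.7e-07). Both calls held without any 1 library. IGLL1, a chain of the surrogate light chain of early B cells, was at 1.97 ± 0.288 FPKM in ELI and 10.3 ± 1.26 FPKM in DMSO. PLAC8, a small cysteine-rich protein of myeloid cells, averaged 25.9 ± 0.182 FPKM in ELI and 84.6 ± 2.30 FPKM in DMSO. The plot of the difference against level shows these genes among all those tested, and the plot of single genes by library shows the values of 16 genes.

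**Figure D1:**
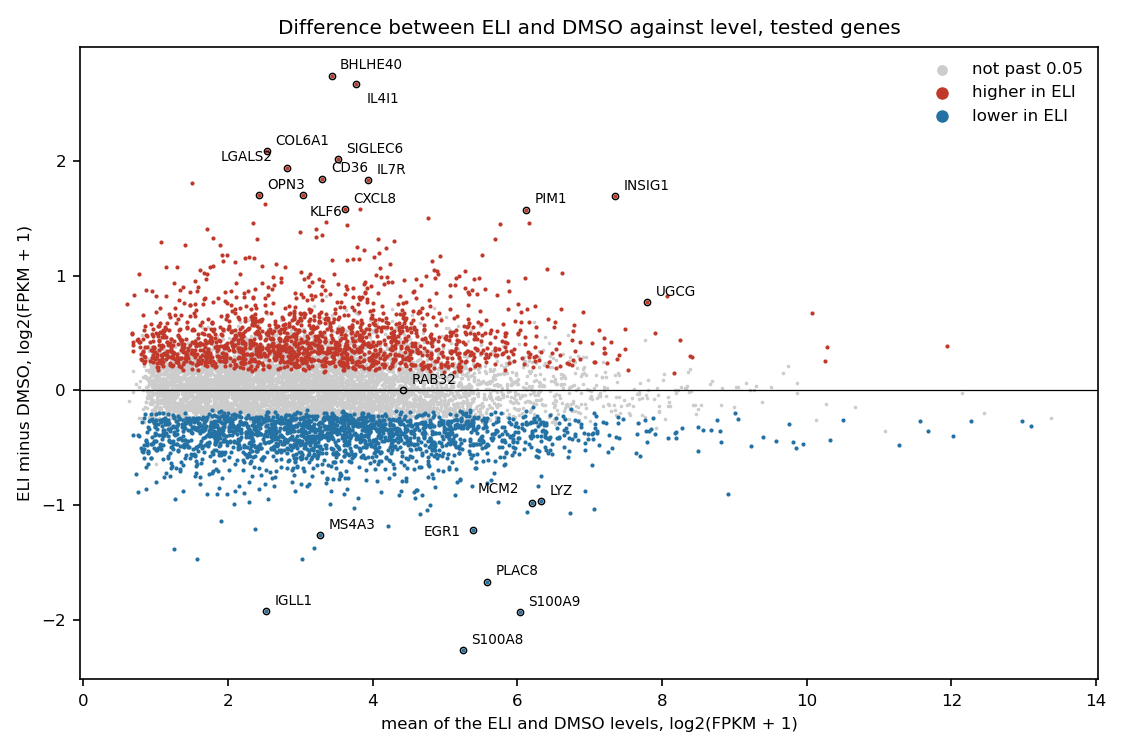
Each point is 1 of the 9959 tested genes, placed by its mean level in ELI and DMSO (x axis, log2(FPKM + 1)) and by the difference ELI minus DMSO (y axis, same scale), in red where called higher (1629 genes), in blue where called lower (1971) and in grey otherwise. BHLHE40 at 2.74 and S100A8 at -2.27 are the extremes among the labelled genes, and RAB32 lies at 0.00.

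**Figure D2:**
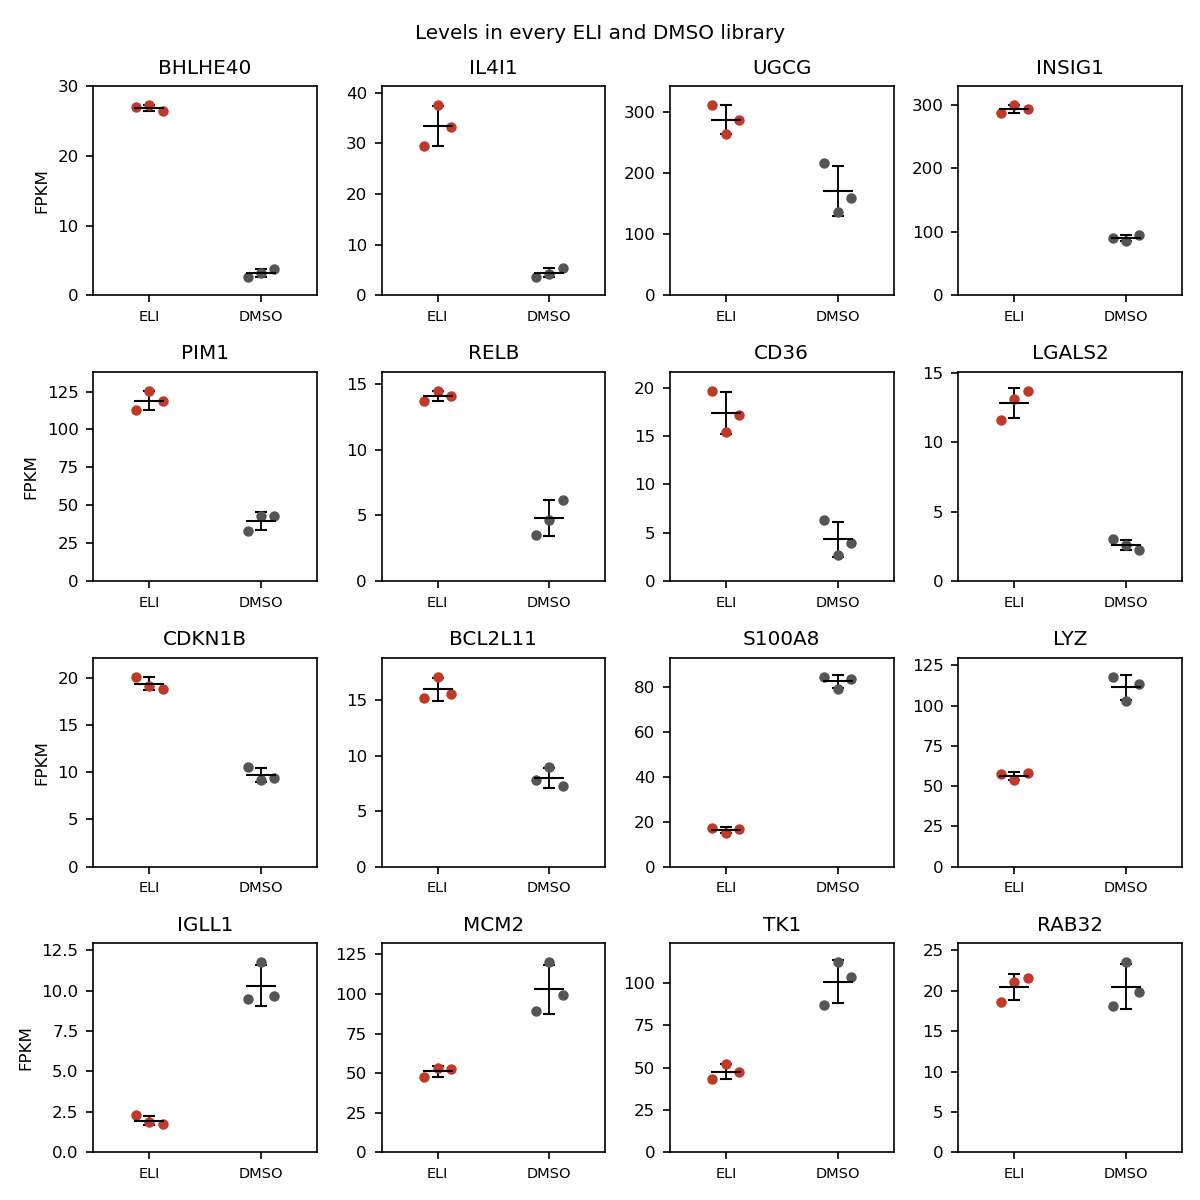
FPKM of 16 genes in the 3 ELI libraries (red, left) and the 3 DMSO libraries (grey, right), replicates 1 to 3 from left to right within a group, on linear axes that start at 0; the horizontal mark is the mean and the bars are the SD. Groups are apart in 15 of the panels, which for the largest rises and falls was a condition of their choice, and for RAB32 they overlap (18.6, 21.1 and 21.6 FPKM in ELI, 18.1, 23.5 and 19.8 FPKM in DMSO).

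UGCG, the gene of the inhibited enzyme, rose in ELI. It was at 312, 264 and 287 FPKM in ELI and at 216, 137 and 160.0 FPKM in DMSO. Every ELI library was above every DMSO library, and replicate 1 was the highest of its group in both. The difference was 0.77 (SE 0.15, limma adjusted p = 0.0024), and it passed in each fit without 1 library. Among the 10 tested genes of glycosphingolipid synthesis 3 rose and 0 fell, beside 36.1% called among all tested genes (16.4% higher and 19.8% lower). Their median was 0.16 beside 0.01 for all genes. With a filter of 5 FPKM the count was 1 and 0. UGT8, which makes the sister lipid galactosylceramide, averaged 1.55 ± 0.301 FPKM in ELI and 0.789 ± 0.117 FPKM in DMSO, where it was under the 1 FPKM of the filter. The third was B3GNT5, the entry enzyme of the lacto series (0.45, limma adjusted p = 0.029), whose call was lost without DMSO replicate 2 or 3 or ELI replicate 1 or 3 (limma adjusted p 0.051 to 0.12). B4GALT5, a main lactosylceramide synthase, differed by 0.11 (SE 0.08) and passed only without DMSO replicate 2 (limma adjusted p = 0.035). Of 15 lysosomal genes that take glycosphingolipids apart, 4 rose and 2 fell, and without ELI replicate 1 or without ELI replicate 3 it was 3 and 0. ASAH1, acid ceramidase, which splits ceramide into sphingosine and fatty acid, moved most. It read 16.2, 13.4 and 14.6 FPKM in ELI and 6.33, 4.49 and 4.68 FPKM in DMSO (1.36, SE 0.11, limma adjusted p = 6.2e-06). The sialidase NEU1 rose by 0.62 (SE 0.09).

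Ceramide synthesis and use moved in both directions, with 8 of 23 tested genes higher and 5 lower. CERT1, the ceramide carrier between endoplasmic reticulum and Golgi, was at 6.28, 5.23 and 5.59 FPKM in ELI and 3.99, 2.23 and 2.49 FPKM in DMSO (0.80, SE 0.16, limma adjusted p = 0.0030). SPTLC2, a subunit of the enzyme that starts sphingolipid synthesis, and SGMS1, a sphingomyelin synthase, rose by 0.67 (SE 0.09) and 0.56 (SE 0.07). ORMDL1, which restrains that first enzyme, rose too (0.58, SE 0.10). Lower in ELI were the kinases CERK (-0.40, SE 0.08) and SPHK1 (-0.37, SE 0.07), which phosphorylate ceramide and sphingosine, and SMPD4, a neutral sphingomyelinase (-0.41, SE 0.09). These 7 calls held without any 1 library.

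Genes of sterol synthesis and uptake were higher in ELI, 13 of 25 tested against 1 lower (14 and 4 without DMSO replicate 1), with a median of 0.38. The pathway is switched on by SREBP factors when membrane sterol is low, and INSIG1 is both a target and a brake of it. INSIG1 stood at 288, 300.0 and 294 FPKM in ELI and at 90.7, 85.0 and 94.6 FPKM in DMSO. The difference was 1.70 (SE 0.06, limma adjusted p = 7.0e-09), and that the groups did not overlap is part of how INSIG1 was chosen. The synthesis enzymes HMGCS1 and MSMO1 rose by 1.0 (SE 0.15) and 1.05 (SE 0.11). SREBF2, which encodes the sterol-sensing factor itself, differed by 0.04 (SE 0.09), short of the threshold. ABCA1, which exports cholesterol and is a textbook target of the sterol-activated LXR receptors, also rose, with 2.88, 2.81 and 2.52 FPKM in ELI and 1.35, 0.882 and 0.975 FPKM in DMSO (0.86, SE 0.08, limma adjusted p = 1.9e-05). NR1H3, which encodes LXR-alpha, differed by -0.17 (SE 0.09), past the threshold without DMSO replicate 1 (limma adjusted p = 0.033) and without the 4 libraries numbered 1 (limma adjusted p = 0.040).

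Fatty acid synthesis rose in the same way, with 13 of 17 genes higher, 1 lower and a median of 0.42 (9 and 0 in a fit of the ELI and DMSO libraries alone). SCD, which puts the first double bond into fatty acids, was at 338, 369 and 359 FPKM in ELI and 177, 217 and 208 FPKM in DMSO (0.83, SE 0.08, limma adjusted p = 1.7e-05). FASN, fatty acid synthase, was at 76.4, 89.2 and 82.1 FPKM in ELI and 45.0, 57.6 and 51.1 FPKM in DMSO (0.68, SE 0.09, limma adjusted p = 0.00016). PNPLA3, a lipid droplet acyltransferase and lipase, rose by 0.68 (SE 0.09). Among 17 genes of lipid uptake, storage and oxidation, 6 rose and 7 fell. CD36, a scavenger receptor that takes up fatty acids and oxidised lipoproteins, had 19.7, 15.4 and 17.3 FPKM in ELI and 6.33, 2.71 and 3.90 FPKM in DMSO. The difference of CD36 was 1.85 (SE 0.21, limma adjusted p = 6.6e-05). That its groups did not overlap is part of how it was chosen among the largest rises. The droplet coat gene PLIN2 (-0.38, SE 0.06), the droplet lipase inhibitor HILPDA (-0.45, SE 0.08) and the fatty acid carrier FABP5 (-0.52, SE 0.07) fell, as did ACADVL, a mitochondrial enzyme of long-chain fatty acid oxidation (-0.45, SE 0.08).

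Lysosomal genes were mostly higher in ELI. Of 28 hydrolases and membrane proteins 15 rose and 2 fell, with a median of 0.25. Of 16 subunits of the V-ATPase, the pump that acidifies lysosomes, 11 rose and 0 fell, with a median of 0.34. The V-ATPase count was 5 and 0 in a fit of the ELI and DMSO libraries alone. CTSH, a lysosomal protease, was at 9.70, 11.3 and 10.7 FPKM in ELI and 4.001, 5.17 and 4.87 FPKM in DMSO (1.03, SE 0.09, limma adjusted p = 7.0e-06). NPC2, which hands cholesterol to the lysosomal membrane, rose by 0.63 (SE 0.06), and the pump subunits ATP6V1B2 and ATP6AP2 by 0.60 (SE 0.05) and 0.62 (SE 0.08). GUSB, beta-glucuronidase, fell (-0.47, SE 0.08). TFEB, a master activator of lysosomal genes, was itself lower at 1.67, 1.78 and 1.91 FPKM in ELI against 2.43, 2.57 and 2.63 FPKM in DMSO (-0.35, SE 0.07, limma adjusted p = 0.0027). Among 34 autophagy genes 10 rose and 1 fell, a count that reached 17 and 4 without DMSO replicate 1 and 14 and 3 with the replicate number as a block. SQSTM1, the cargo receptor p62, had the largest rise among them, with 25.1, 28.3 and 27.7 FPKM in ELI and 9.37, 12.1 and 11.2 FPKM in DMSO (1.24, SE 0.09, limma adjusted p = 1.8e-06). The receptors NBR1 and BNIP3L rose by 0.62 (SE 0.09) and 0.92 (SE 0.19).

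Iron and redox genes moved beside them. TFRC, the transferrin receptor through which cells take up iron, was at 86.0, 74.3 and 81.2 FPKM in ELI and 37.9, 27.1 and 30.7 FPKM in DMSO, a difference of 1.32 (SE 0.12, limma adjusted p = 1.4e-05). FTH1, the ferritin heavy chain that stores iron, was higher too, at 118, 126 and 119 FPKM in ELI and 53.3, 70.4 and 51.1 FPKM in DMSO (1.06, SE 0.15), and FTH1 has many processed pseudogenes, so its reads may be split. Of 19 genes of heme and iron 6 rose and 3 fell (8 and 5 without DMSO replicate 1). Of 26 targets of the oxidative stress factor NRF2, 13 rose and 2 fell (15 and 6 without DMSO replicate 1), with a median of 0.28. SLC7A11, the cystine importer, was at 3.90, 3.22 and 3.07 FPKM in ELI and 1.71, 0.863 and 0.875 FPKM in DMSO (1.05, SE 0.14), and NFE2L2, which encodes NRF2, rose by 0.81 (SE 0.18). HMOX1, the heme-degrading enzyme, averaged 2.14 ± 0.326 FPKM in ELI and 1.98 ± 0.373 FPKM in DMSO (SD, n = 3 each), with overlapping groups (0.08, SE 0.11, limma adjusted p = 0.59).

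**Figure D3:**
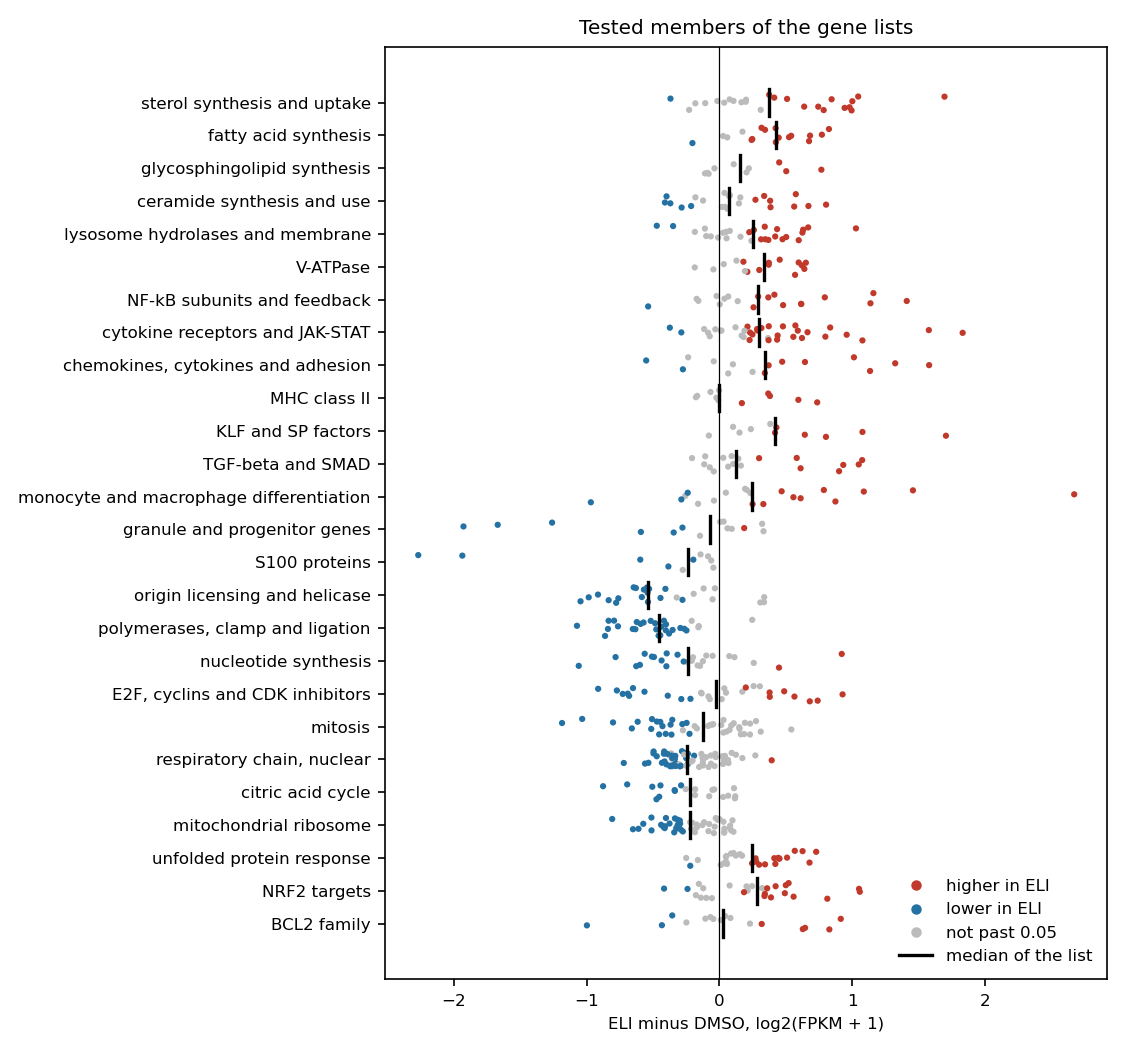
Each row is a gene list and each point a tested member, placed by ELI minus DMSO on the log2(FPKM + 1) scale, red where called higher, blue where called lower and grey otherwise; vertical position within a row is arbitrary and the black bar is the list's median. The medians of sterol and fatty acid synthesis, lysosome and V-ATPase lie to the right of 0. Those of origin licensing (median -0.54) and the polymerase list (median -0.46) lie to the left. Each of these lists has members on both sides of 0.

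Genes of NF-kB signalling rose, 11 of 19 against 1 lower (11 and 3 without DMSO replicate 1), with a median of 0.29. NF-kB factors are held in the cytoplasm by inhibitors such as IkB-alpha, and activate genes of those same inhibitors in feedback. RELB, a subunit of the non-canonical pathway, read 13.7, 14.5 and 14.1 FPKM in ELI and 3.48, 4.68 and 6.19 FPKM in DMSO (1.41, SE 0.13, limma adjusted p = 1.4e-05). NFKB2, its partner, was at 14.3, 16.1 and 14.9 FPKM in ELI and 5.44, 6.80 and 6.75 FPKM in DMSO (1.14, SE 0.09, limma adjusted p = 3.1e-06). The nuclear cofactor BCL3 rose by 1.16 (SE 0.09) and NFKBIA, the gene of IkB-alpha, by 0.79 (SE 0.10). RELA, the main canonical subunit, differed by -0.17 (SE 0.11, limma adjusted p = 0.23, and 0.0075 without DMSO replicate 1), and the kinase gene IKBKE fell (-0.54, SE 0.10).

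Secreted factors and their receptors were higher more often than lower. Of 15 chemokines, cytokines and adhesion genes 8 rose and 2 fell. CXCL8, the neutrophil chemokine interleukin 8, was at 23.5, 17.4 and 19.3 FPKM in ELI and 8.82, 4.46 and 5.38 FPKM in DMSO (1.58, SE 0.23, limma adjusted p = 0.00039). CCL2, the monocyte chemokine, was at 7.42, 7.46 and 7.13 FPKM in ELI and 2.34, 1.87 and 2.86 FPKM in DMSO (1.32, SE 0.10, limma adjusted p = 3.2e-06). ICAM1, an adhesion ligand, and TNFSF10, the death ligand TRAIL, rose by 1.14 (SE 0.10) and 1.01 (SE 0.16). TNF went the other way, with 71.9, 73.6 and 72.1 FPKM in ELI and 109, 114 and 97.3 FPKM in DMSO (-0.55, SE 0.07, limma adjusted p = 9.8e-05). Among 36 cytokine receptors and members of the JAK-STAT pathway 23 rose and 2 fell, with a median of 0.30. The count was 11 and 1 in a fit of the ELI and DMSO libraries alone. PIM1, a survival kinase downstream of FLT3 and STAT5, was at 113, 125 and 119 FPKM in ELI and 32.8, 42.6 and 42.9 FPKM in DMSO (1.58, SE 0.09, limma adjusted p = 3.7e-07), and its relative PIM2 rose by 0.96 (SE 0.10). IL7R, the interleukin 7 receptor, was at 29.6, 27.1 and 26.7 FPKM in ELI and 8.55, 5.30 and 7.77 FPKM in DMSO (1.83, SE 0.14, limma adjusted p = 3.5e-06). SOCS3, a feedback inhibitor of the pathway, rose by 1.08 (SE 0.09) and FLT3 itself by 0.44 (SE 0.11), while CSF3R, the receptor of the granulocyte growth factor, fell (-0.37, SE 0.06).

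Antigen presentation was followed in both MHC classes. Of 11 tested MHC class II genes 5 rose and 0 fell, and the median was 0.00. CIITA, the activator that sets class II transcription, was at 3.05, 3.51 and 3.15 FPKM in ELI and 1.79, 1.97 and 1.66 FPKM in DMSO (0.60, SE 0.07, limma adjusted p = 5.1e-05). HLA-DRA was at 95.3, 94.3 and 102 FPKM in ELI and 53.4, 60.0 and 60.5 FPKM in DMSO (0.74, SE 0.07, limma adjusted p = 1.1e-05), and HLA-DPA1 and the invariant chain CD74 rose by 0.38 (SE 0.07) and 0.37 (SE 0.10). HLA-DRB1 (0.00, SE 0.08) and HLA-DRB5 (-0.18, SE 0.14) did not pass, and since these copies are near-identical their reads may be split. The fifth call, RFX5 (0.17, limma adjusted p = 0.031), was lost without DMSO replicate 3 or any 1 ELI library (limma adjusted p 0.057 to 0.10). Among 15 genes of class I and peptide loading 2 rose and 4 fell, beside 16.4% higher and 19.8% lower among all tested genes. The 3 subunits of the immunoproteasome, which cuts peptides for class I, were all lower: PSMB8 (-0.61, SE 0.10), PSMB9 (-0.61, SE 0.08) and PSMB10 (-0.51, SE 0.09). So was NLRC5, the activator of class I genes (-0.49, SE 0.10, limma adjusted p = 0.0028). Of 19 interferon-stimulated genes 4 rose and 6 fell, among them IFITM1, an antiviral membrane protein, at 1.20 (SE 0.09) and USP18, a brake on interferon signalling, at -0.48 (SE 0.09).

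Transcription factors of early responses changed in both directions. Of 23 immediate early and AP-1 genes 10 rose and 4 fell. EGR1, a zinc finger factor induced by growth factor signalling, was at 28.5, 22.5 and 28.0 FPKM in ELI and 74.9, 68.9 and 46.7 FPKM in DMSO (-1.22, SE 0.17, limma adjusted p = 0.00026). FOSL2, an AP-1 member, was also lower, at 7.59, 8.91 and 8.66 FPKM in ELI and 16.8, 19.3 and 18.1 FPKM in DMSO (-1.02, SE 0.08, limma adjusted p = 2.1e-06). Other AP-1 genes rose: JUN was at 3.72, 3.36 and 3.85 FPKM in ELI and 1.34, 1.24 and 1.31 FPKM in DMSO (1.01, SE 0.07, limma adjusted p = 1.8e-06), and FOSB rose by 0.78 (SE 0.06). BTG2, an antiproliferative early gene, rose by 0.90 (SE 0.07). Of 16 genes of MAPK feedback 6 rose and 1 fell, led by the phosphatases DUSP10 (1.0, SE 0.06) and DUSP4 (0.85, SE 0.07). Of 11 KLF and SP factors 6 rose and 0 fell, with a median of 0.42. KLF6, a zinc finger factor of myeloid activation, was at 14.1, 13.8 and 13.7 FPKM in ELI and 3.95, 3.84 and 2.94 FPKM in DMSO (1.71, SE 0.09, limma adjusted p = 3.0e-07). KLF2, a factor of cell quiescence, was low but apart, with 1.84, 2.44 and 2.34 FPKM in ELI and 0.473, 0.580 and 0.490 FPKM in DMSO (1.08, SE 0.08). Of these libraries only those of ELI reached the 1 FPKM of the filter.

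BHLHE40 belongs to a list of 13 clock and basic helix-loop-helix genes, of which 3 rose and 1 fell (5 and 2 with the block, 4 and 4 without DMSO replicate 1). Among all tested genes 16.4% were called higher and 19.8% lower. NR1D2, a nuclear receptor of the clock, was at 5.47, 4.15 and 4.63 FPKM in ELI and 2.02, 0.975 and 1.24 FPKM in DMSO (1.27, SE 0.16, limma adjusted p = 0.00012), and the clock output factor TEF fell (-0.43, SE 0.10). The BHLHE40 promoter is shown because that gene leads the named rises (RefSeq, GRCh38.p14, chr3:4979187-4979486, plus strand, 5′ to 3′), with the E-box CACGTG in capitals, a palindrome that reads alike on both strands:
BHLHE40: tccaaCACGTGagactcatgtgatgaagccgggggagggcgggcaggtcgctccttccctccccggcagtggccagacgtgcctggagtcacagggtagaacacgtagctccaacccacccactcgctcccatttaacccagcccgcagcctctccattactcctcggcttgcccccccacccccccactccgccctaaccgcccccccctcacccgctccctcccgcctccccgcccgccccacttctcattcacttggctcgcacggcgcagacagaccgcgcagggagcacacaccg
The E-box begins at position -245 from the start. It was found in 879 of 8178 tested promoters (10.7%), and it forms the centre of the lysosomal CLEAR pattern TCACGTGA, so the 2 overlap. CLEAR matches stood in 4 of 20 lysosomal and 2 of 11 V-ATPase promoters, against 177 of 8178 (2.16%). Other lists ran from 0, as in 0 of 9 promoters of lysosomal glycosphingolipid breakdown, to 2 of 13 in the BCL2 family. A sterol regulatory element was searched too, and stood in 1 of 19 sterol promoters against 81 of 8178 (0.99%). An AP-1 pattern stood in 1 of 16 immediate early promoters against 333 of 8178 (4.07%). Among 18 genes of TGF-beta and SMAD signalling 7 rose and 0 fell (7 and 2 without DMSO replicate 1). The receptor TGFBR1 and the inhibitor SMAD7 rose by 1.05 (SE 0.18) and 0.93 (SE 0.09).

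DNA replication genes were lower in ELI. Before S phase, ORC1, CDT1 and the MCM helicase are loaded on origins, CDC45 then activates the helicase, and E2F factors drive transcription of this set. Of 25 tested genes of origin licensing and the helicase 17 fell and 0 rose, with a median of -0.54. Of 29 genes of polymerases, clamp and ligation 25 fell and 0 rose, with a median of -0.46. The numbers that fell stayed within a factor of 1.5 in every alternative tried, while 3 origin licensing genes were higher without DMSO replicate 1, without the 4 libraries numbered 1 and in the blocked fit of the 6 libraries. MCM2 was at 47.4, 53.5 and 52.7 FPKM in ELI and 89.1, 120.0 and 99.4 FPKM in DMSO (-0.98, SE 0.10, limma adjusted p = 2.2e-05). ORC1 was at 17.4, 18.3 and 17.4 FPKM in ELI and 32.6, 42.9 and 37.99 FPKM in DMSO (-1.05, SE 0.09, limma adjusted p = 1.0e-05). In both genes all 3 ELI libraries lay below the lowest DMSO library. CDT1 and MCM5 differed by -0.91 (SE 0.08) and -0.83 (SE 0.09). In the second list the histone chaperone ASF1B (-1.07, SE 0.10), the chromatin assembly subunit CHAF1B (-0.86, SE 0.11), the polymerase delta subunit POLD1 (-0.84, SE 0.10) and UHRF1, which maintains DNA methylation (-0.83, SE 0.07), fell most.

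The promoters of 3 of these genes and of E2F1, which also fell, are shown because they hold an E2F pattern. The patterns searched on both strands were TTTCCCGC, TTTGGCGC, TTTCGCGC and TTTGCCGC, and matches are in capitals. The promoters are from RefSeq (GRCh38.p14), 5′ to 3′ along the gene, for MCM2 (chr3:127598161-127598460, plus strand), CDT1 (chr16:88803539-88803838, plus strand), UHRF1 (chr19:4909251-4909550, plus strand) and E2F1 (chr20:33686336-33686635, minus strand):
MCM2: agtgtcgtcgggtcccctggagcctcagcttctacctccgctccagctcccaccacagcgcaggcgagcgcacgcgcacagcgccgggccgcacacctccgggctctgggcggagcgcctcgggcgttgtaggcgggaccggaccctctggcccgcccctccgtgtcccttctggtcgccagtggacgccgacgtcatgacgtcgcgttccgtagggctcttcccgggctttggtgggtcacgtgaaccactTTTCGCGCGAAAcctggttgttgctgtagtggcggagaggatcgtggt
CDT1: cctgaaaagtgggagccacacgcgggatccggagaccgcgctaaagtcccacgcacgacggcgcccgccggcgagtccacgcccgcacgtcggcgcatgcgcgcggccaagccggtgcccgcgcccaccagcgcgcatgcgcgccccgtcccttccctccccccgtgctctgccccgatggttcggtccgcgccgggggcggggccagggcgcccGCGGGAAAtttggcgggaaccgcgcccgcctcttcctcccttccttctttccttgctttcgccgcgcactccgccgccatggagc
UHRF1: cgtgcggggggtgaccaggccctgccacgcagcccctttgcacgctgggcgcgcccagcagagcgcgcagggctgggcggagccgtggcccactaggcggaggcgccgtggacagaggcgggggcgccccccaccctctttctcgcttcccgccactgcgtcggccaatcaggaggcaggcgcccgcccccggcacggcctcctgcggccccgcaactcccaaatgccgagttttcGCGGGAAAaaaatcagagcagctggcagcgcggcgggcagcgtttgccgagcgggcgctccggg
E2F1: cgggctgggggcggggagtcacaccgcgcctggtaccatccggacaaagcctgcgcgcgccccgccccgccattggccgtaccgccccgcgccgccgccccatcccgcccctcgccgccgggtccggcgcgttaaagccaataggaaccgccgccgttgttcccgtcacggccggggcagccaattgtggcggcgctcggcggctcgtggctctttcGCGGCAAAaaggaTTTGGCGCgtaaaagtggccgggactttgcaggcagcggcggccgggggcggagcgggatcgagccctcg
MCM2 has 2 matches that overlap, 1 on each strand, and E2F1 has 2 that do not overlap. Any of the 4 patterns stood in 11 of 22 origin licensing promoters and in 10 of 25 of the polymerase list, against 480 of 8178 tested promoters (5.87%) and 908 of all 27305 in the table (3.33%). Of the 480 tested genes with a match 26.2% were called lower and 12.7% higher, beside 19.8% lower and 15.98% higher among all 8178. A match is a stretch of letters and not a binding site.

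Other cell cycle genes moved in both directions. Of 25 genes of nucleotide synthesis 12 fell and 2 rose (12 and 4 without DMSO replicate 1). TK1, thymidine kinase, was at 43.6, 52.1 and 47.4 FPKM in ELI and 86.9, 112 and 103 FPKM in DMSO (-1.06, SE 0.10, limma adjusted p = 1.8e-05), and TYMS, thymidylate synthase, fell by 0.78 on the log2 scale (SE 0.11). The 2 that rose with all libraries were RRM2B, the ribonucleotide reductase subunit of resting cells (0.92, SE 0.23), and SAMHD1, which breaks deoxynucleotides down (0.45, SE 0.09). Among 28 E2F genes, cyclins and inhibitors 8 rose and 10 fell. E2F1 was at 18.6, 22.3 and 22.2 FPKM in ELI and 31.0, 38.5 and 37.0 FPKM in DMSO (-0.73, SE 0.09, limma adjusted p = 0.00015), and CDC25A, the phosphatase that opens S phase, fell with it (-0.91, SE 0.10). CDKN1B, the kinase inhibitor p27, went up, at 20.1, 19.2 and 18.8 FPKM in ELI and 10.6, 9.21 and 9.36 FPKM in DMSO (0.93, SE 0.08, limma adjusted p = 1.0e-05). The inhibitor CDKN2B rose by 0.68 (SE 0.07) and the cyclin CCND2 by 0.74 (SE 0.07). Of 42 mitosis genes 18 fell and 0 rose (20 and 7 without DMSO replicate 1 or without the 4 libraries numbered 1), with a median of -0.13. The kinetochore gene SPC24 (10.6, 11.7 and 11.7 FPKM in ELI, 24.3, 29.2 and 27.7 FPKM in DMSO) and the factor MYBL2 (85.2, 99.5 and 91.4 FPKM in ELI, 159, 212 and 199.7 FPKM in DMSO) fell by 1 or more. CCNB1, the mitotic cyclin, was at 64.4, 63.3 and 66.8 FPKM in ELI and 64.1, 67.7 and 69.1 FPKM in DMSO, which overlap (-0.05, SE 0.06).

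Genes of myeloid identity did not move one way. Of 20 monocyte and macrophage genes 10 rose and 3 fell. CHI3L1, a secreted chitinase-like protein of macrophages, was at 114, 122 and 117 FPKM in ELI and 37.5, 45.7 and 43.7 FPKM in DMSO (1.46, SE 0.08, limma adjusted p = 2.9e-07). FCGR2A, an Fc receptor with close copies that may share its reads, and CEBPB, a factor of macrophage differentiation, rose by 1.09 (SE 0.08) and 0.79 (SE 0.11), and CD83, an activation marker of dendritic cells, by 0.87 (SE 0.09). LYZ, lysozyme, fell, with 57.5, 53.7 and 58.1 FPKM in ELI and 118, 103 and 113 FPKM in DMSO (-0.97, SE 0.07, limma adjusted p = 2.7e-06). SPI1, the master factor of the lineage, was at 107, 119 and 106 FPKM in ELI and 97.3, 123 and 102 FPKM in DMSO, with overlap (0.05, SE 0.09). Of 14 granule and progenitor genes 6 fell and 1 rose (6 and 5 with the GC and length trend removed). MS4A3, a membrane protein of granulocyte and monocyte progenitors, was at 5.59, 4.33 and 5.81 FPKM in ELI and 16.4, 12.04 and 13.5 FPKM in DMSO (-1.26, SE 0.12, limma adjusted p = 1.8e-05), and MPO, myeloperoxidase, lay near the filter and fell (-0.59, SE 0.09).

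Of a list of 10 S100 genes and partners 5 fell and 0 rose. The count was 2, S100A8 and S100A9, without DMSO replicate 2, DMSO replicate 3 or ELI replicate 1, and 3 without ELI replicate 2. Abundant S100A4 was at 433, 504 and 510.4 FPKM in ELI and 437, 576 and 594 FPKM in DMSO, with overlap (limma adjusted p = 0.36, and 0.022 without DMSO replicate 1). Galectins and siglecs bind glycans on cell surfaces. LGALS2 rose while LGALS9 (-0.48, SE 0.08) and LGALS12 (-0.52, SE 0.11) fell, and with the GC and length trend removed 3 of the 6 galectins were higher and 2 lower. SIGLEC6 rose by 2.02 (SE 0.13, limma adjusted p = 1.0e-06), and SIGLEC10 (-0.50, SE 0.12) and SIGLEC12 (-0.51, SE 0.10) fell. COL6A2, the partner chain of COL6A1, rose with it (0.88, SE 0.08), and the matrix protein gene TGFBI fell (-0.74, SE 0.09). Of the 3 tested APOBEC3 cytidine deaminases, close copies of each other that may share reads, all 3 fell, with APOBEC3B at 15.2, 18.2 and 17.4 FPKM in ELI and 29.4, 35.8 and 30.6 FPKM in DMSO (-0.87, SE 0.08, limma adjusted p = 1.7e-05).

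The homeobox program kept by the KMT2A fusion rose in part, with 7 of 14 genes higher and 2 lower. The count was 4 and 1 without DMSO replicate 2 or without ELI replicate 1, and 3 and 1 without ELI replicate 3. HOXA9 was at 17.8, 15.8 and 16.4 FPKM in ELI and 12.8, 11.4 and 12.5 FPKM in DMSO (0.42, SE 0.07, limma adjusted p = 0.0014), and its cofactor MEIS1 at 7.01, 6.58 and 6.44 FPKM in ELI and 4.68, 3.83 and 3.95 FPKM in DMSO (0.58, SE 0.08, limma adjusted p = 0.00034). Both calls held without any 1 library, and the groups were apart.

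In the lists of the citric acid cycle, the mitochondrial ribosome and the respiratory chain, the genes that passed were lower with 1 exception. Of 20 citric acid cycle genes 9 fell and 0 rose, and of 47 proteins of the mitochondrial ribosome 23 fell and 0 rose. In a fit of the ELI and DMSO libraries alone the numbers that fell were 7 and 15. IDH2, the mitochondrial NADP-dependent isocitrate dehydrogenase, was at 82.5, 94.3 and 89.9 FPKM in ELI and 139.5, 189 and 166 FPKM in DMSO (-0.88, SE 0.10, limma adjusted p = 7.4e-05), and OGDH, a subunit of the next enzyme of the cycle, fell by 0.69 on the log2 scale (SE 0.11). MRPL37 fell most among the ribosomal proteins (-0.81, SE 0.10). Among 72 nuclear genes of the respiratory chain 34 fell and 1 rose, but 16 fell without DMSO replicate 3 and 15 without ELI replicate 1. UQCRC1, a core subunit of complex III, was at 36.4, 41.4 and 38.5 FPKM in ELI and 55.5, 70.7 and 68.1 FPKM in DMSO (-0.72, SE 0.10, limma adjusted p = 0.00021), and NDUFV1, of complex I, fell by 0.56 on the log2 scale (SE 0.07). Of the 13 mitochondrially encoded genes 8 fell and 0 rose, with 2 left without DMSO replicate 2 or ELI replicate 1, 4 without DMSO replicate 3, 3 without ELI replicate 3 and 5 under median-of-ratios scaling or with the GC and length trend removed. MT-ND5 was at 1939, 2369 and 1999.9 FPKM in ELI and 2564, 3209 and 2985 FPKM in DMSO (-0.47, SE 0.10, limma adjusted p = 0.0031), and nuclear copies of mitochondrial DNA may share such reads.

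Glycolysis and hypoxia genes were split, with 5 of 26 higher and 10 lower (3 and 4 without ELI replicate 1). The hexokinases went in opposite directions: HK2 was at 20.9, 21.8 and 22.1 FPKM in ELI and 13.7, 13.1 and 11.1 FPKM in DMSO (0.73, SE 0.08), and HK1 at 13.8, 15.8 and 15.2 FPKM in ELI and 19.0, 23.7 and 21.7 FPKM in DMSO (-0.50, SE 0.09). The glucose transporter SLC2A1 rose (0.39, SE 0.08) and GAPDH, a central glycolytic enzyme, fell (-0.45, SE 0.11).

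Of 29 genes of the unfolded protein response 15 rose and 1 fell, and the count was 9 and 0 without DMSO replicate 2, 9 and 1 without DMSO replicate 3, and 10 and 0 without ELI replicate 1 or ELI replicate 3. HSPA5, the main chaperone of the endoplasmic reticulum, was at 134, 130.3 and 136 FPKM in ELI and 91.3, 85.9 and 92.0 FPKM in DMSO (0.57, SE 0.05, limma adjusted p = 1.8e-05), and its cochaperone DNAJB9 rose by 0.73 (SE 0.14). Of 24 genes of the ATF4 response 8 rose and 6 fell (8 and 10 without DMSO replicate 1). PPP1R15A, which reverses the translation arrest of this response, was at 45.2, 51.6 and 49.6 FPKM in ELI and 21.2, 27.3 and 24.5 FPKM in DMSO (0.98, SE 0.09, limma adjusted p = 1.0e-05). PHGDH and SHMT2, enzymes of serine and one-carbon metabolism, fell by 0.70 (SE 0.11) and 0.59 (SE 0.11) on the log2 scale. ASS1, the arginine synthesis enzyme, was among the 15 largest falls, with 14.4, 17.3 and 17.2 FPKM in ELI and 31.0, 39.9 and 35.6 FPKM in DMSO (-1.07, SE 0.10). ATF4 itself differed by -0.05 (SE 0.08), short of the threshold.

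Housekeeping machinery gave counts that depended on single libraries, and they stand beside 16.4% higher and 19.8% lower among all tested genes. Of 74 cytosolic ribosomal proteins 4 rose and 14 fell, against 6 and 23 with a block. Leaving out DMSO replicate 1, 2 or 3 gave 5 and 37, 2 and 5, or 5 and 4, and leaving out ELI replicate 1 or 3 gave 2 and 4 or 2 and 6. Of 33 proteasome genes 12 fell and 0 rose, with 5 left without DMSO replicate 2, DMSO replicate 3 or ELI replicate 1, 7 without ELI replicate 3, and 17 lower and 4 higher without DMSO replicate 1. Of 38 genes of nucleolar ribosome biogenesis 6 rose and 5 fell, of 20 tRNA synthetases 3 rose and 4 fell, and of 21 heat shock chaperones 2 rose and 2 fell. Without DMSO replicate 1 these 3 counts were 13 and 11, 7 and 5, and 6 and 5. The nucleolar count was 9 and 9 with the block. Leaving out DMSO replicate 2 or 3 gave 2 and 3 or 1 and 3, and leaving out ELI replicate 1 or 3 gave 0 and 2 or 2 and 4. The synthetase count was 1 and 3 without DMSO replicate 2 or 3 or ELI replicate 1 or 3. The chaperone count was 1 and 1 without DMSO replicate 2 or ELI replicate 1 or 3, 5 and 2 with the block, and 4 and 3 with the GC and length trend removed. RPS2, a small subunit protein with many pseudogenes, was lower (-0.45, SE 0.10), as were FBL, the rRNA methyltransferase (-0.54, SE 0.10), PSMC3, a proteasome ATPase (-0.52, SE 0.10), and VARS1, the valine synthetase (-0.67, SE 0.11).

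The BCL2 family, through which venetoclax acts, was followed in the cells given eliglustat alone. These proteins set the threshold for mitochondrial outer membrane permeabilisation, with survival proteins such as BCL2 and MCL1 held against BH3-only proteins. Of 16 genes 5 rose and 3 fell. BCL2, the target of venetoclax, was at 26.6, 26.2 and 25.9 FPKM in ELI and 25.7, 19.99 and 21.3 FPKM in DMSO (0.23, SE 0.10). The ELI libraries were all above the DMSO libraries, yet the difference did not pass (limma adjusted p = 0.079). It passed when the replicate number entered as a block (limma adjusted p = 0.035), and also when DMSO replicate 1 was left out (limma adjusted p = 0.0045). Among BH3-only genes, BCL2L11, which encodes BIM, was at 15.2, 17.1 and 15.5 FPKM in ELI and 7.76, 8.996 and 7.28 FPKM in DMSO (0.91, SE 0.08, limma adjusted p = 8.9e-06). BBC3, which encodes PUMA, and BMF rose by 0.65 (SE 0.07) and 0.63 (SE 0.11). BIK fell, with 16.2, 19.9 and 19.7 FPKM in ELI and 32.2, 42.9 and 39.7 FPKM in DMSO (-1.0, SE 0.12, limma adjusted p = 7.3e-05). BCL2A1, a survival protein, was near the filter and rose, with 1.01, 0.873 and 1.62 FPKM in ELI and 0.291, 0.0498 and 0.298 FPKM in DMSO (0.83, SE 0.13).

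RAB32, named in the series title, was at 18.6, 21.1 and 21.6 FPKM in ELI and 18.1, 23.5 and 19.8 FPKM in DMSO. The groups overlapped and the difference was 0.00 (SE 0.11, limma adjusted p = 0.99). Its relative RAB38 rose, with 2.61, 2.27 and 2.02 FPKM in ELI and 1.05, 0.865 and 0.793 FPKM in DMSO (0.79, SE 0.10, limma adjusted p = 0.00014). Of 34 genes of contacts between endoplasmic reticulum and mitochondria 5 rose and 4 fell, beside 16.4% higher and 19.8% lower among all tested genes. The count was 11 and 9 without DMSO replicate 1, and 3 and 2 without DMSO replicate 2, DMSO replicate 3 or ELI replicate 1. Receptors that release calcium from the endoplasmic reticulum were split, ITPR1 higher (0.44, SE 0.09) and ITPR3 lower (-0.70, SE 0.07).

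Whether the response to eliglustat differed in the presence of venetoclax was tested as (Comb minus ABT) minus (ELI minus DMSO), 2 contrasts that share no library. Comb minus ABT called 6691 of 9959 genes (67.2%; 35.4% higher and 31.7% lower), and 3296 of the 3600 genes called in ELI minus DMSO (91.6%) were called there in the same direction, which is 49.3% of its own calls. Across genes the 2 contrasts had a Pearson's r of 0.90 and a Spearman's rho of 0.91, given as a description, since genes are not independent. The difference of the contrasts passed in 532 genes (5.34%), 167 higher and 365 lower with venetoclax present. This number became 1123 without DMSO replicate 2, and 351 or 322 when ELI replicate 2 or 3 was left out, 326 without ABT replicate 2, 331 and 332 without Comb replicates 2 and 3, 983 with a replicate block and 1698 with the GC and length trend removed. Without the 4 libraries numbered 1 the balance turned, with 1801 genes past the threshold, 1072 higher and 729 lower. Among the 365 lower were 18 of 25 origin licensing genes, 20 of 29 of the polymerase list, 11 of 25 of nucleotide synthesis and 23 of 42 of mitosis. CDC45 was at 20.7, 21.4 and 20.9 FPKM in ELI and 31.2, 40.4 and 37.7 FPKM in DMSO, and at 8.13, 7.88 and 7.93 FPKM in Comb and 38.6, 40.3 and 43.6 FPKM in ABT. The fall was thus -0.76 with eliglustat alone and -2.22 on top of venetoclax (difference -1.46, SE 0.12, limma adjusted p = 3.5e-05). MCM2 fell by 0.98 and 2.05 on the log2 scale (difference -1.06, limma adjusted p = 0.00065), and among genes outside the lists TCF19, a cell cycle gene, had the same pattern (-0.67 alone, -1.93 with venetoclax).

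Of the 11 MHC class II genes 5 were higher by this test, that is, rose more in Comb against ABT. HLA-DRA was at 128, 127 and 138 FPKM in Comb and 40.1, 39.4 and 41.4 FPKM in ABT, a difference of 1.68 beside 0.74 for ELI minus DMSO (difference of the contrasts 0.94, SE 0.09, limma adjusted p = 0.00012). HMOX1 had the largest difference of all those named by the rule. It was at 1.96, 2.52 and 1.95 FPKM in ELI and 1.56, 2.15 and 2.25 FPKM in DMSO, and at 16.5, 15.2 and 15.7 FPKM in Comb and 1.35, 1.85 and 1.70 FPKM in ABT (2.60, SE 0.15, limma adjusted p = 5.3e-06). ASAH1 rose by 1.36 with eliglustat alone and by 2.48 on top of venetoclax (difference 1.12, limma adjusted p = 0.0012). Some genes responded more without venetoclax. LYZ fell by 0.97 on the log2 scale in ELI, against -0.19 in Comb minus ABT, which also passed (limma adjusted p = 0.037). The contrasts of LYZ differed as well (difference 0.78, SE 0.10, limma adjusted p = 0.00079), and CD83 rose by 0.87 alone and by 0.23 with venetoclax present (difference -0.65, limma adjusted p = 0.0089). UGCG, INSIG1, S100A8 and RAB32 did not pass this test, with differences of 0.22 (SE 0.21), 0.13 (SE 0.08), -0.08 (SE 0.18) and 0.39 (SE 0.16).

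**Figure D4:**
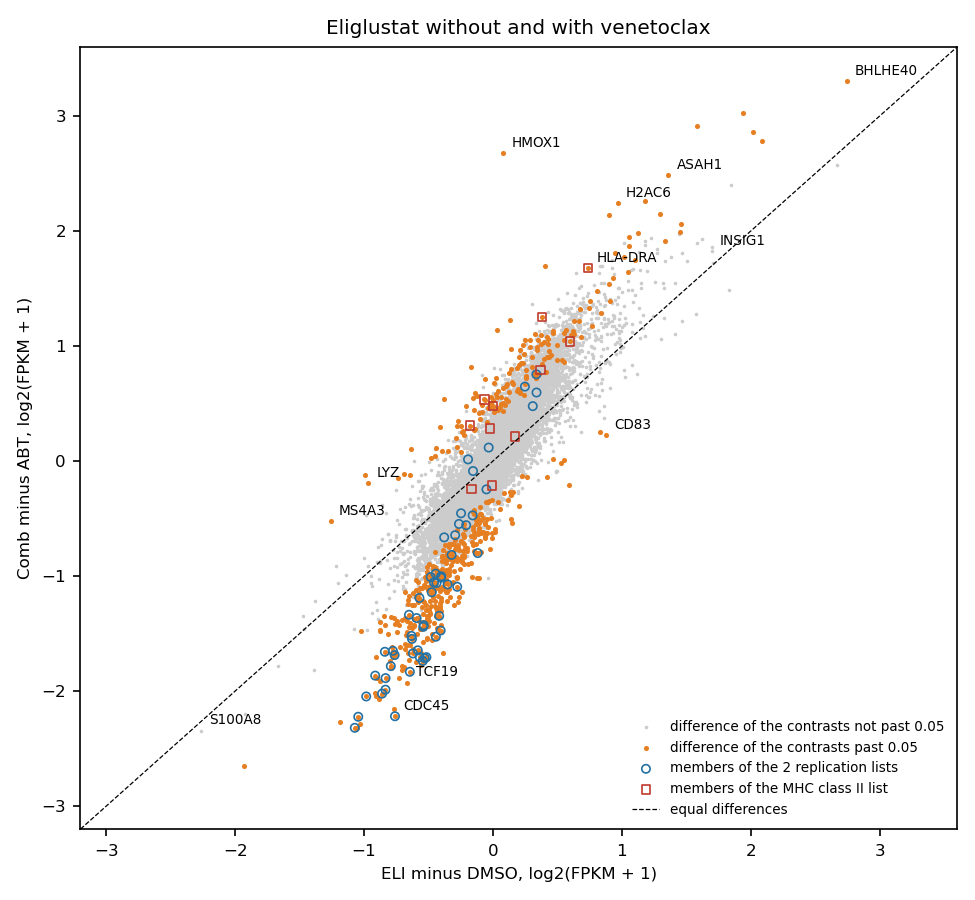
Each point is a tested gene, with ELI minus DMSO on the x axis and Comb minus ABT on the y axis (both log2(FPKM + 1)); the dashed line marks equal differences, orange points passed the test of the difference (532 genes), blue circles are the 2 replication lists and red squares MHC class II genes. Most replication genes lie below the line on the left, and HMOX1 lies far above it at 0.08 and 2.68.

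**Figure D5:**
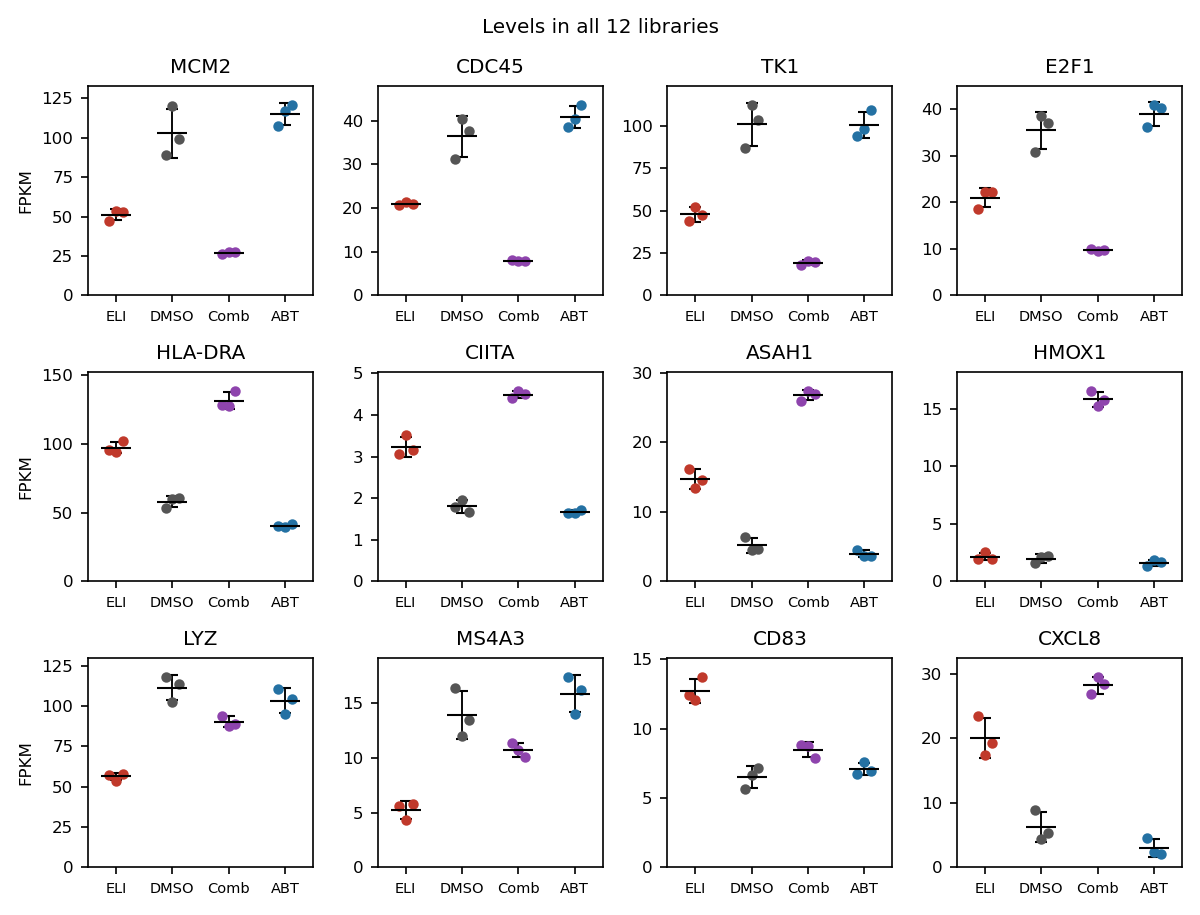
FPKM of 12 genes in all 12 libraries, in the order ELI, DMSO, Comb and ABT with replicates 1 to 3 from left to right, on linear axes that start at 0; horizontal marks are means and bars the SD. For MCM2 the Comb libraries are lowest (26.2, 27.5 and 27.5 FPKM) and for HMOX1 they stand alone (16.5, 15.2 and 15.7 FPKM).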

How the data were processed

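Expression was measured as FPKM per gene in 12 libraries. The authors deposited a single FPKM table, per the file headers, scaled by gene length and library reads. No aligner, build or annotation is named in the sources used here. Groups came from the sample titles. Genes reaching 1 FPKM in at least 3 libraries were tested on log2(FPKM + 1) with limma 3.58.1 (R 4.3.3), with 4 group means and a robust, trended variance, and p-values were adjusted by Benjamini-Hochberg over all 9959 genes at 0.05. Values of all 16361 genes above 0 were whole multiples of 1 read, with a step found for each gene and a tolerance of at most 0.001 reads, and 1 read on a gene of 5 kb was worth 0.0095 to 0.0116 FPKM. On simulated data 70 of 100 genes changed by 0.5 and 99 of 100 changed by 1 (log2) were recovered. Of the other 9759 genes, simulated without a change, 10 (0.10%) were called. Whether these shares hold for the deposited libraries, with their GC-linked deviations and many more calls, was not tested. Same-numbered ELI and DMSO libraries deviated together (r = 0.82, 0.78 and 0.24). Those of ABT did so too (r 0.26 to 0.88 with DMSO or ELI), but those of Comb did not (r -0.40 to 0.16 with the other groups). Library deviations also ran with GC content, and whether the numbers mark pairs was not tested. The main fit had no block, and the block over all 12 libraries treated the numbers alike in every group, Comb included. Counting by strand is not stated, so overlapping and antisense genes are uncertain. The 50 lists and the members were chosen with earlier results of these data known. Named genes were the 15 largest rises and falls, all members of lists of up to 12 tested genes, up to 4 rises and falls and the first member of longer lists, and the 6 largest differences each way with venetoclax. Some genes that met this rule are not reported here. Promoters came from RefSeq (GRCh38.p14), from 250 bases before to 50 after the start, and were matched by symbol for 8178 of 9959 tested genes. Alternatives changed the scaling, filter, pseudocount, block, libraries, GC and length trend, or model.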

Additional observations from a re-analysis of the deposited data

Results flagged for a closer look

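For 44 of the 171 genes named with values, the difference (Comb minus ABT) minus (ELI minus DMSO) on the log2(FPKM + 1) scale passed the limma test at an adjusted p under 0.05. The values are these differences, and 5.34% of all tested genes passed. Those below 0 among origin and helicase genes were CDC45 -1.46, ORC1 -1.18, MCM2 -1.06, MCM5 -1.05 and CDT1 -0.95. Those below 0 among replication, chromatin and nucleotide genes were ASF1B -1.25, CHAF1B -1.16, POLD1 -0.82, UHRF1 -1.15, TK1 -1.26 and TYMS -0.84. Among E2F, cell cycle and mitosis genes they were E2F1 -1.16, CDC25A -1.10, SPC24 -1.09, MYBL2 -1.25, CCNB1 -0.58 and TCF19 -1.26. Single genes of other kinds below 0 were PHGDH -1.11, SHMT2 -0.59, IDH2 -0.60, SMPD4 -0.55, S100A9 -0.72, APOBEC3B -1.04, USP18 -0.52, FOSL2 -0.46 and CD83 -0.65.

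Above 0 among MHC class II genes were HLA-DRA 0.94, HLA-DPA1 0.87, HLA-DRB1 0.48 and CIITA 0.44. Of the 15 largest rises of eliglustat alone, 5 passed, with BHLHE40 0.56, COL6A1 0.70, SIGLEC6 0.85, LGALS2 1.08 and CXCL8 1.34. Single genes of other kinds above 0 were HMOX1 2.60, FTH1 0.89, SLC7A11 0.81, ASAH1 1.12, CHI3L1 0.60, CDKN2B 0.40 and SAMHD1 0.48. LYZ (0.78) and MS4A3 (0.74) were above 0, and both fell less in Comb against ABT than in ELI against DMSO. Among the genes below 0, CD83 rose in both contrasts and rose less with venetoclax. FTH1, HLA-DRB1 and APOBEC3B have near-identical copies that may share reads. The cause of these differences was not tested.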

How the results depend on the processing

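The count of 3600 genes called in ELI against DMSO ranged from 2291 (without ELI replicate 1) to 5871 (without DMSO replicate 1) when 1 library was left out. It was 1994 in a fit of the 6 ELI and DMSO libraries alone and 5581 without the 4 libraries numbered 1. With the replicate number as a block, 4650 genes were called, 3599 of the 3600 among them. The count of 532 for the difference with and without venetoclax ranged from 322 to 1123 with 1 library left out, and was 983 with the replicate block, 1801 without the 4 libraries numbered 1 (1072 higher and 729 lower) and 1698 with the GC and length trend removed (690 higher and 1008 lower). The cause of these shifts was not tested. UGCG passed in each of these fits with a difference of 0.62 to 0.95 with 1 library left out. Limma voom on the recovered reads called 1666 higher and 1964 lower. The planned edgeR test was not run, since the deposited unit is FPKM.

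Differences near 0 changed sign without passing. RAB32 was at -0.0012 with median-of-ratios scaling, -0.015 when rescaled without mitochondrially encoded genes and -0.017 without the 4 libraries numbered 1. With the GC and length trend removed, with or without the replicate block, ATF4 was at 0.079 and HLA-DRB1 at 0.11. SREBF2 was at -0.032 without the 4 libraries numbered 1. With 1 library left out the difference ranged from -0.14 to 0.010 for ATF4, -0.074 to 0.076 for HLA-DRB1, -0.030 to 0.14 for HMOX1, -0.079 to 0.10 for RAB32, -0.018 to 0.15 for SPI1 and -0.067 to 0.11 for SREBF2. The block changed the call of 1 of the other 170 named genes, BCL2. List counts moved most in the fit of 6 libraries, 24 of 50 by over 1.5 times.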
